A study of Mus musculus with 6 samples.

Results

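The collagen chains described here are the products of 9 genes, Col1a1 and Col1a2 of type I, Col3a1 of type III, Col5a1, Col5a2 and Col5a3 of type V, and Col6a1, Col6a2 and Col6a3 of type VI. They were taken by gene name from a table of 55995 features, and each name matched 1 row. Each averaged 1 TPM or more across the 6 libraries, the level required for testing, as did 11938 features in all. TPM is a relative transcript level scaled for transcript length and for the total of the library, so levels of different chains can be set side by side.

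RNA came from the gastrocnemius, a calf muscle, of NSG mice (NOD/SCID/IL2Rγ-null, an immunodeficient strain) that all carried a subcutaneous tumour of wild-type MDA-MB-231 cells, a human breast cancer line, grown in the left flank with Matrigel. The radiotherapy group (3 libraries) had the tumour irradiated once, at a size near 800 mm3, with a dose of 10 Gy (6 MV X-rays, dose rate 6 Gy/min), and the contralateral muscle was taken after 3 days. The control group (3 libraries) is labelled control, and neither its tumour size nor its day of collection is given, so a difference in either cannot be told apart from irradiation. The labels give no age or sex of the mice and do not say whether each library is 1 mouse. The p-values therefore reflect no more than library-to-library spread, part or all of which may be technical.

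Collagen chains wind around each other in trimers through long runs of glycine repeats. Types I and III form the fibrils that bear tension in the connective tissue of muscle and tendon, and type V is built into those fibrils and limits their width. Type VI forms fine beaded filaments next to the basement membrane of muscle fibres, and mutations in its main chains cause inherited muscle disease. In muscle most of these genes are expressed mainly by fibroblasts, fibro-adipogenic progenitors and tendon cells rather than by the fibres.

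No chain passed the test over all features with all 6 libraries. Mean TPM was higher in the radiotherapy muscles for 8 of the 9 chains and lower for Col5a3, and 1 type I chain, Col1a2, overlapped the controls. Of the 9 chains, 5 (Col1a1, Col3a1, Col6a1, Col6a2 and Col6a3) were higher in every radiotherapy library than in every control library, and none was lower in that sense. Over all features tested, 1.73% were separated upward and 19.3% downward. The log2 difference was above 0 for 8 of the 9 chains, beside 21.5% of all features, and its median over the 9 was 0.96, beside -0.36 for all features. The mean of radiotherapy replicates 1 and 2 was 4.87 to 6.81 times the control mean for the type I and III chains. In replicate 3 these chains stood at 1.32 to 2.14 times that mean. By limma 0 of 9 chains had an adjusted p under 0.05 (beside 0.0419% of all features called higher and 0.0168% called lower), while 7 had an unadjusted p under 0.05, all higher, beside 1.18% of all features (13.3% lower). That count of 7 was 3 without control replicate 2 and 4 when control replicate 3 or either of radiotherapy replicates 1 and 2 was left out, in settings where 0.687% to 0.888% of all features were higher and 5.22% to 12.1% lower at that level.

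Radiotherapy replicate 3 stood apart from replicates 1 and 2 across the whole table. Its log2 levels correlated with theirs at r = 0.85 over the 11938 tested features, against 0.97 between replicates 1 and 2 and 0.94 to 0.95 among the controls, as a description over genes. With the controls, replicate 3 correlated at 0.89 to 0.90, and replicates 1 and 2 at 0.90 to 0.92. Each radiotherapy library on either side of this divide was thus nearer to every control than to the other side. The 20 most abundant features took 50.5% and 52.1% of the TPM in replicates 1 and 2, and 30.3% to 42.6% in the other 4 libraries. On the TPM scale 78.5% of all features had a log2 difference below 0. Results for the chains are given with and without replicate 3.

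The stretches of genome just before the start sites are shown for 4 chains to set those whose transcripts were higher beside Col5a3, whose transcripts were not. The sequences are the 250 bases upstream of the start in RefSeq on GRCm38.p6, on the strand of the gene, and capitals mark CCAAT and TATAAA on either strand. Of the 9 genes 7 had an entry, and Col1a1 and Col5a2 had none. The windows are chr6:4505368-4505617 (plus strand) for Col1a2, chr1:45311288-45311537 (plus strand) for Col3a1, chr9:20815068-20815317 (minus strand) for Col5a3 and chr1:90843972-90844221 (minus strand) for Col6a3.
Col1a2: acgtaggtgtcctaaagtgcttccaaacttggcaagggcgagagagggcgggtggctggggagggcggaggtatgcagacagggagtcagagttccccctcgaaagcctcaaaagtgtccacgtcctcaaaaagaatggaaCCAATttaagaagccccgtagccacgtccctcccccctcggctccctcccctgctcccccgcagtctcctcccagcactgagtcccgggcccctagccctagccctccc
Col3a1: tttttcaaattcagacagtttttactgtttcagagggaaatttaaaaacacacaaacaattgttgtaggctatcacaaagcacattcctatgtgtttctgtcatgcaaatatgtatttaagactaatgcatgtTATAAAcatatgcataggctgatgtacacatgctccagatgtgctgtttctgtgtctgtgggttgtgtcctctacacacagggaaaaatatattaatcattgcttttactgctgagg
Col5a3: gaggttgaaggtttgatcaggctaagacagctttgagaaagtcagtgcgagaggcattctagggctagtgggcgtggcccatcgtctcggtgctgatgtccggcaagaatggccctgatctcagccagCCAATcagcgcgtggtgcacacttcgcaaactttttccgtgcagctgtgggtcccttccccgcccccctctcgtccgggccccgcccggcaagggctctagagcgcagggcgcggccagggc
Col6a3: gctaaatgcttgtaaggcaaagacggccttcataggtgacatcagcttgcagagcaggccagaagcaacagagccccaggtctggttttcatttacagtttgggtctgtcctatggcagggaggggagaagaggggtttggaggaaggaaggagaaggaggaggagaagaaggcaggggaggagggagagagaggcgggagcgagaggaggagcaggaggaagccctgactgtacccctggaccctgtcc

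CCAAT, the core of the element bound by NF-Y, was found in 2 of the 7 genes, Col1a2 at 109 to 105 bases before the start and Col5a3 at 122 to 118, and in 33.8% of all 32851 promoters of the same length. Mean TPM in the radiotherapy group was higher for Col1a2 and lower for Col5a3, and both chains overlapped the controls. A link between these letters and the levels was not tested. TATAAA was found in Col3a1, at 117 to 112 bases before the start, and in 12.4% of all promoters. GGGCGG, a core bound by SP1, was found in Col1a2, Col5a1, Col5a3 and Col6a2 and in 32.7% of all promoters. CANNTG, the E-box, was found 4 times in Col3a1, once each in Col5a3 and Col6a1, and in 66.2% of all promoters. Both strands were searched, none of the 4 motifs was found in the window of Col6a3, and a match is a description of the letters. The share of G and C ran from 35.2% in the window of Col3a1 to 76.4% in that of Col5a1.

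Type I collagen, the main fibril-forming collagen, is a trimer of chains from Col1a1 and Col1a2. Col1a1 was at 2.05, 1.35 and 2.03 TPM in control replicates 1, 2 and 3, against 10.67, 14.0 and 3.00 TPM in the radiotherapy replicates in the same order. The groups did not overlap, and replicate 3 lay at 1.46 times the highest control. The means were 1.81 ± 0.398 and 9.22 ± 5.64 TPM (SD, n = 3 per group), a log2 difference of TPM + 1 of 1.67 (SE 0.50, 95% interval 0.50 to 2.84, limma adjusted p = 0.294). Col1a2 was at 3.61, 1.70 and 2.77 TPM in the controls, against 11.88, 14.35 and 3.56 TPM in radiotherapy muscle. Here the groups overlapped, since replicate 3 lay just below control replicate 1. The log2 difference of Col1a2 was 1.42 (SE 0.49, 95% interval 0.26 to 2.58, limma adjusted p = 0.315).

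Col3a1 encodes the single chain of type III collagen, which forms thin fibrils together with type I. It was at 4.01, 3.39 and 4.18 TPM in the controls, against 19.82, 19.88 and 8.27 TPM in radiotherapy muscle. All 3 radiotherapy libraries lay clear of the control range, with replicate 3 at 1.98 times the highest control and at 0.417 times the mean of replicates 1 and 2. The log2 difference was 1.71 (SE 0.37, 95% interval 0.85 to 2.58), with an adjusted p of 0.238 by limma. It lay above that of 99.5% of all features tested.

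The type V chains differed among themselves. Col5a1, the chain found in nearly all type V trimers, was at 2.85, 0.73 and 1.02 TPM in the controls, against 4.18, 3.85 and 2.65 TPM in radiotherapy muscle. Control replicate 1 lay above radiotherapy replicate 3, so the groups overlapped. Its log2 difference was 0.92 (SE 0.37, 95% interval 0.06 to 1.79, limma adjusted p = 0.334). Col5a2, the usual partner of Col5a1, was the least abundant chain in both groups, at 1.45, 0.51 and 0.96 TPM in the controls and 2.13, 2.27 and 0.94 TPM in radiotherapy muscle. The log2 difference of Col5a2 was 0.48, with a 95% interval from -0.31 to 1.28 (limma adjusted p = 0.494).

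Col5a3 encodes a further type V chain that joins trimers in some tissues. It was at 19.34, 4.79 and 7.65 TPM in the controls, against 5.50, 4.12 and 6.87 TPM in radiotherapy muscle. Only control replicate 1 stood far from the other 5 libraries, and the 3 radiotherapy levels lay around the 2 lower controls. The log2 difference was -0.65 (SE 0.48, 95% interval -1.77 to 0.47, limma adjusted p = 0.51). Without control replicate 1 it was -0.15. Without control replicate 2 it was -1.05, with groups that then did not overlap, beside 29.3% of all features separated downward in that setting. Relative to the median of all features it was -0.29, so Col5a3 lay close to the bulk of the table while the other 8 chains lay 0.84 to 2.07 above that median.

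The type VI chains Col6a1, Col6a2 and Col6a3, which join in 1 trimer, were separated between the groups in all 3 cases on the TPM scale. When libraries were rescaled without mitochondrial genes and the 20 most abundant features, Col6a1 overlapped, which left 4 of the 9 chains separated upward, beside 3.46% of all features. Col6a2 was at 2.38, 2.14 and 2.19 TPM in the controls, against 7.17, 7.21 and 5.00 TPM in radiotherapy muscle. It was the chain with the tightest controls, the highest of them being 1.11 times the lowest, and radiotherapy replicate 3 lay at 2.10 times the highest control. The log2 difference was 1.19 (SE 0.24, 95% interval 0.62 to 1.76), with an unadjusted p of 0.00168 and an adjusted p of 0.238 by limma. Col6a1 was at 3.25, 2.20 and 2.97 TPM in the controls, against 8.27, 8.30 and 3.64 TPM in radiotherapy muscle, with replicate 3 at 1.12 times the highest control. Its log2 difference was 0.96 (SE 0.34, limma adjusted p = 0.323). Col6a3, the largest chain, was at 2.57, 2.16 and 1.94 TPM in the controls, against 5.32, 7.07 and 3.71 TPM in radiotherapy muscle. Its log2 difference was 0.95 (SE 0.28, limma adjusted p = 0.292). An exact two-sided permutation test of 3 libraries against 3 cannot go below p = 0.1, the value it gave for each of the 5 separated chains.

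**Figure D1:**
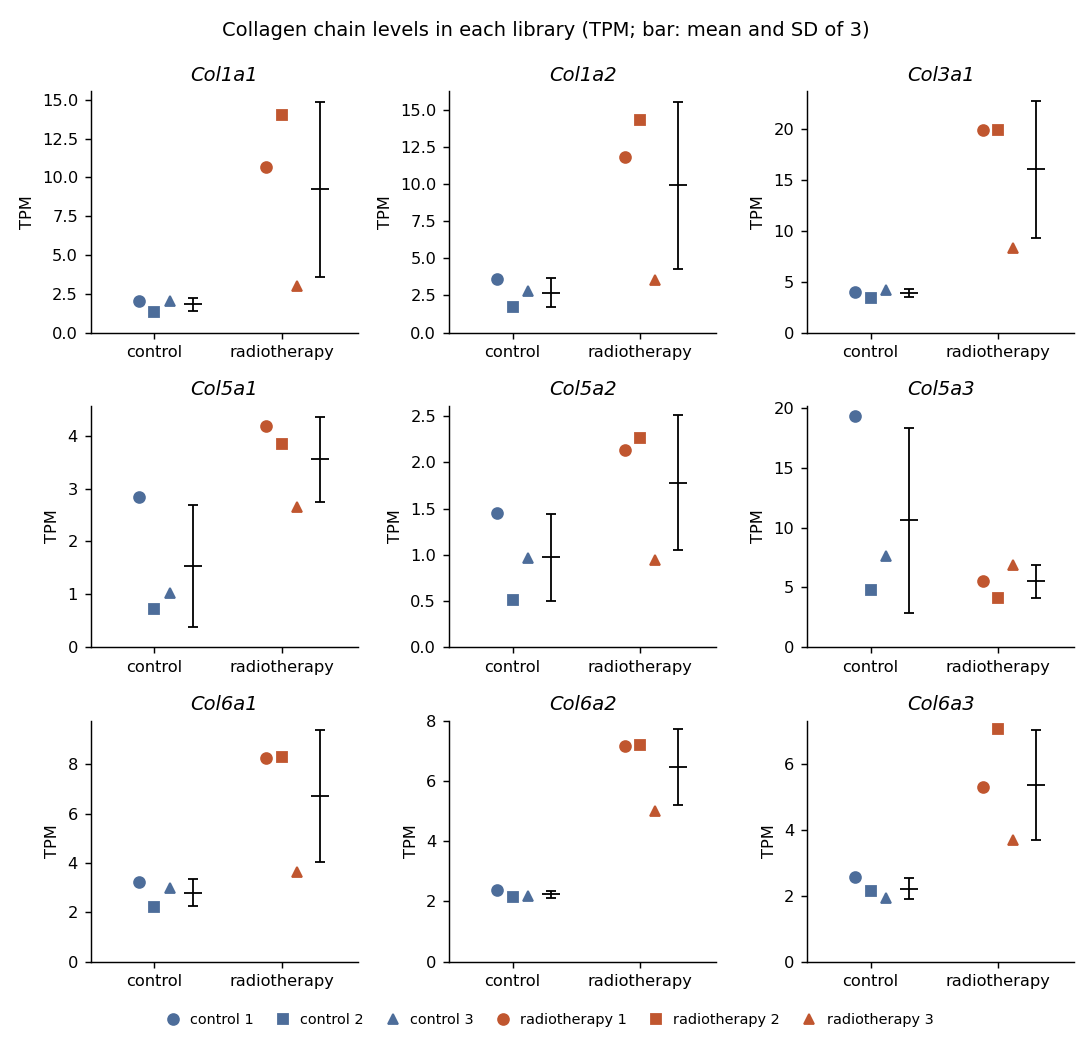
Level in TPM of each of the 9 collagen chains in the 6 libraries. Points are libraries, the marker shape gives the replicate number, and the bar beside each group is the mean with the SD of 3. Radiotherapy replicate 3 lies below replicates 1 and 2 for every chain but Col5a3.

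Without radiotherapy replicate 3, 6 of the 9 chains passed the limma test as higher, beside 1.98% of all features. These were the type I, III and VI chains, with log2 differences of 2.25 for Col1a1 (adjusted p = 0.0107), 1.96 for Col1a2 (0.0132), 2.10 for Col3a1 (0.0103), 1.30 for Col6a1 (0.0146), 1.34 for Col6a2 (0.0124) and 1.15 for Col6a3 (0.0191). Col5a1 and Col5a2 did not pass in any setting, their smallest adjusted p being 0.0769 and 0.0858 by limma. An unadjusted limma p under 0.05 was reached by 8 chains, all higher, beside 3.45% of all features higher and 43.6% lower. The same 8 were separated upward, beside 6.17% of features upward and 58.8% downward, and lay above 0, beside 17% above and 82.8% below. In that setting 27.6% of all features passed as lower, and the median log2 difference of all features was -0.57. The radiotherapy group was then replicates 1 and 2 alone, the most alike pair of libraries (r = 0.97). The adjusted p-values of this setting rest in part on the small spread between them.

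Scaling by median of ratios, which sets a typical feature equal between libraries, moved the median of all features from -0.36 to -0.01. The median of the 9 chains then went from 0.96 to 1.32, and its distance above the median of all features was 1.32 before and 1.33 after. With that scaling 7 chains were separated upward, Col1a2 and Col5a1 in addition, beside 7.06% of all features upward and 9.77% downward, and Col5a3 was at -0.28. The difference was above 0 for 8 chains, beside 48.8% of all features above and 51.2% below. With that scaling 7 chains had an unadjusted limma p under 0.05, all higher, beside 4.4% of features higher and 5.67% lower. None of the 9 passed, beside 0.0253% called higher and 0.00844% lower, the smallest limma adjusted p being 0.281 for Col6a2.

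**Figure D2:**
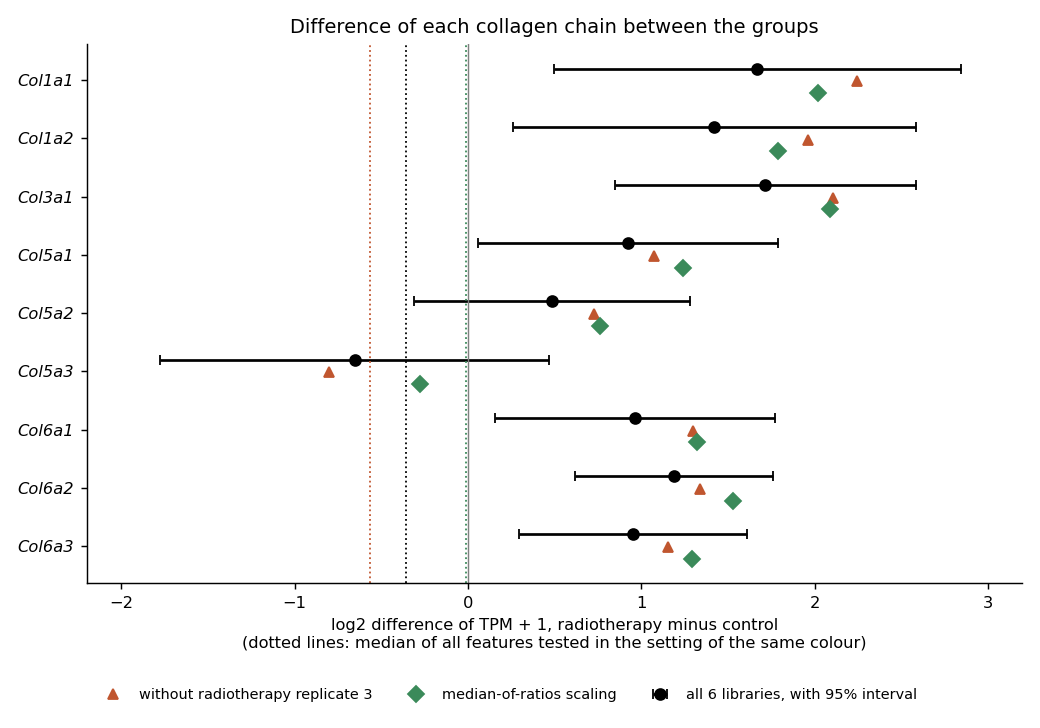
Log2 difference of TPM + 1 (radiotherapy minus control) of each chain, with the 95% interval of the limma fit over all 6 libraries, and the same difference without radiotherapy replicate 3 and after median-of-ratios scaling. Dotted lines give the median of all features in the setting of the same colour; Col5a3 is the chain that lies below 0.

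The chains also differed in order within a library. In all 3 control libraries Col5a3 was the most abundant of the 9 and Col3a1 the next. In all 3 radiotherapy libraries Col3a1 came first, followed by Col1a2 and Col1a1 in replicates 1 and 2 and by Col5a3 and Col6a2 in replicate 3. Below Col3a1 in control, each chain overlapped the next in its range, from Col6a1 at 2.81 ± 0.544 TPM to Col5a2 at 0.973 ± 0.470 TPM (SD, n = 3). In radiotherapy muscle neighbours in the order overlapped, from Col3a1 down to Col5a1, and only Col5a1 and Col5a2 at the lower end did not.

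The 9 chains summed to 41.5, 19.0 and 25.7 TPM in the controls and to 74.9, 81.05 and 37.6 TPM in radiotherapy muscle. Radiotherapy replicate 3 thus lay below control replicate 1 in the sum, and Col5a3 made up 46.6% of that control library. Type V chains took 57.0%, 31.8% and 37.5% of the sum in the controls and 15.8%, 12.6% and 27.8% in radiotherapy muscle, without overlap. The share of type III was 9.66% to 17.9% in the controls and 21.97% to 26.4% in radiotherapy muscle, also without overlap. Type I took 13.6% to 18.7% in control, 30.1% and 35.0% in radiotherapy replicates 1 and 2, and 17.4% in replicate 3. The share of type VI was 19.8% to 34.3% in the controls and 27.7% to 32.8% in radiotherapy muscle. These shares sum to a fixed total, so a lower share of Col5a3 raises the others.

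**Figure D3:**
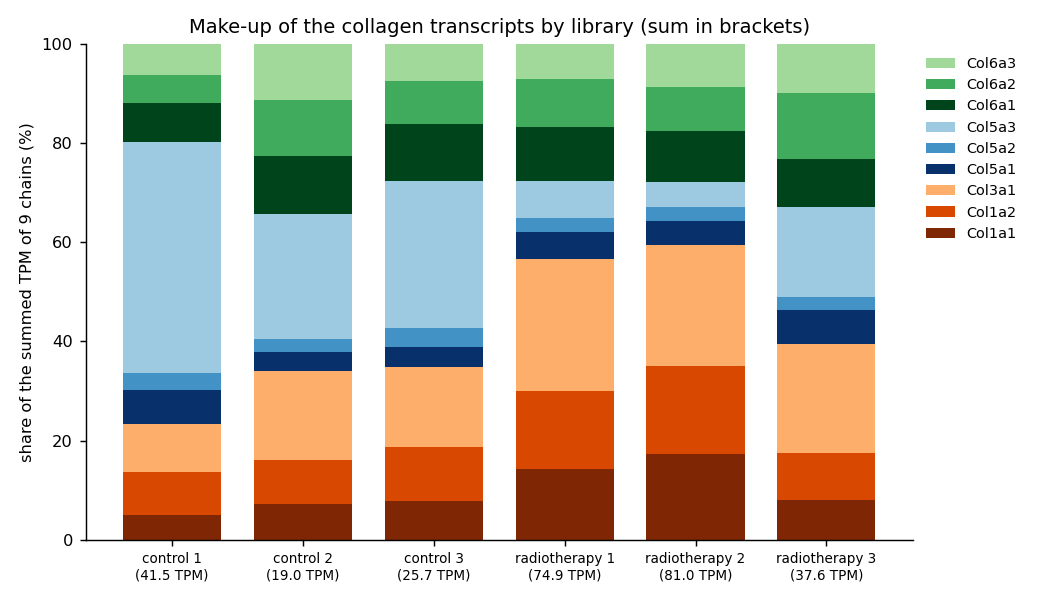
Share of each chain in the summed TPM of the 9 chains, in percent, by library, with the sum in brackets. Col5a3 is the largest part of each control library, from 25.3% to 46.6%, and takes 5.08% to 18.3% of the radiotherapy libraries.

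Ratios within a library do not depend on its scaling. The ratio of Col1a1 to Col1a2 transcripts was 0.568, 0.794 and 0.733 in the controls and 0.898, 0.976 and 0.843 in radiotherapy muscle, so the 2 chains were nearer to equal in each radiotherapy library than in any control. The groups did not overlap, with a difference of 0.39 in the mean log2 ratio, and the exact two-sided permutation test gave its smallest possible p of 0.1 (0.5 adjusted over the 5 ratios examined). The ratio of Col6a2 to Col6a1 was 0.732, 0.973 and 0.737 in the controls and 0.867, 0.869 and 1.37 in radiotherapy muscle, and the groups overlapped. For Col6a3 to Col6a1 the range was 0.653 to 0.982 in the controls and 0.643 to 1.02 in radiotherapy muscle. Col3a1 was 1.96 to 2.51 times Col1a1 in the controls and 1.86, 1.42 and 2.76 times in radiotherapy replicates 1, 2 and 3. The ratio of Col5a2 to Col5a1 was 0.509 to 0.941 in the controls and 0.355 to 0.59 in radiotherapy muscle, again with overlap (exact permutation p = 0.3 before adjustment).

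Profiles over the 6 libraries were compared between chains. Likeness was measured as the root-mean-square distance between log2 levels after each gene was centred on its own mean, where 0 is an identical profile. Of the 36 pairs of chains, the closest were Col6a2 with Col6a3 (0.173) and Col1a1 with Col1a2 (0.177), followed by Col6a1 with Col6a3 (0.206) and Col1a1 with Col3a1 (0.22). The 8 most distant pairs were the 8 that contain Col5a3, from 0.779 with Col5a2 to 1.45 with Col1a1. Col5a1 with Col5a2 stood at 0.302, while Col5a2 was slightly nearer to Col6a1 (0.272). Col3a1 and Col5a2, listed next to each other on chromosome 1 with no protein-coding gene between them, stood at 0.651. Col6a1 and Col6a2, neighbours on chromosome 10 in the same sense, stood at 0.238.

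The same distance was taken between 10338 other named genes and the mean profile of Col1a1, Col1a2 and Col3a1. Their median distance was 1.27, and the nearest 1% lay within 0.611. The nearest was Mdga1, a membrane-anchored glycoprotein, at a distance of 0.103, with 0.83, 0.31 and 0.59 TPM in the controls and 4.42, 5.32 and 1.4 TPM in radiotherapy muscle. The next was Postn, the matrix protein periostin, at 0.137, followed by Dupd1, a dual-specificity phosphatase of muscle, at 0.251, Ccl19-ps1, a chemokine pseudogene, at 0.257, and Thy1, a surface glycoprotein of fibroblasts, at 0.289. Thy1 was at 0.96, 1.11 and 1.14 TPM in the controls and 5.75, 7.24 and 3.31 TPM in radiotherapy muscle. The last of the 8 were Serpinf1, Pcx and Sfrp4, at 0.297 to 0.315. Reads of a pseudogene cannot be told from those of its near-identical copies without knowing how they were counted, so the level of Ccl19-ps1 is uncertain.

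Nearest to the mean profile of Col6a1, Col6a2 and Col6a3 was Cd248, which encodes endosialin, a surface protein of stromal cells, at a distance of 0.121. It was at 1.33, 1.26 and 1.28 TPM in the controls, against 4.09, 3.72 and 2.03 TPM in radiotherapy muscle. Sh3kbp1, an adaptor protein, was at 0.146, Mcpt4, a mast cell protease present at no more than 2.47 TPM, at 0.156, and Bgn, the collagen-binding proteoglycan biglycan, at 0.168. Fastkd1, Rcn3, Wfdc1 and Hacd1 followed at 0.173 to 0.207. All 8 had the same order of groups as the type VI chains, since likeness to that profile was the rule by which they were named.

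Other collagen genes gave few signals at this level of expression with all 6 libraries. Of the 5 remaining fibrillar chains, Col11a2 alone reached the mean of 1 TPM. It was at 1.03, 0.18 and 1.04 TPM in the controls and 3.21, 2.85 and 0.57 TPM in radiotherapy muscle. Without radiotherapy replicate 3 its log2 difference went from 0.79 to 1.25. In that setting it passed as higher (limma adjusted p = 0.0344), beside 1.98% of all features. The remaining type VI chains Col6a4, Col6a5 and Col6a6 were at no more than 0.24 TPM in any library. Of 9 fibril-associated collagens listed in the table, 2 were tested, and Col16a1 was separated upward, at 2.35, 1.35 and 1.21 against 3.61, 3.58 and 2.55 TPM. Of 13 basement membrane and network collagens, 5 were tested and none was separated. Col15a1, a collagen of the basement membrane zone, was at 5.74, 3.77 and 4.67 TPM in the controls and 4.75, 6.85 and 15.43 TPM in radiotherapy muscle, so its highest level was in the replicate where type I and III chains were lowest of their group. Col4a2, a basement membrane chain, was likewise highest there, at 86.98 TPM against 17.83 to 29.05 TPM in the other 5 libraries. Col18a1 was at 1.7 to 2.45 and 2.36 to 2.8 TPM, Col7a1 at 0.92 to 16.35 and 2.89 to 8.49 TPM, and the fibril-associated Col20a1 at 1.53 to 3.12 and 1.53 to 2.98 TPM. Of all 72 tested genes in the 11 lists of the collagen pathway, none passed the limma test over all features, 6 had an unadjusted p under 0.05 as higher and 5 as lower, beside 1.18% and 13.3% of all features, and 8 were separated upward and 5 downward, beside 1.73% and 19.3% of all features. Without radiotherapy replicate 3, 6 of the 72 were called higher and 16 lower, beside 1.98% and 27.6% of all features. The shares of all features given here are the background for the counts of each list that follows.

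Genes that fold and modify procollagen in the endoplasmic reticulum were separated in both directions. Of 16 tested, 3 were separated upward and 2 downward, beside 1.73% and 19.3% of all features, 0 passed over all features, and the median log2 difference was -0.23, beside -0.36 for all features. Crtap, a part of the prolyl 3-hydroxylase complex, was at 7, 7.6 and 5.6 TPM in the controls and 12.23, 9.69 and 21.23 TPM in radiotherapy muscle. Fkbp10, a collagen chaperone, was at 0.98, 0.78 and 1.07 against 2.15, 1.69 and 4.07 TPM. In both genes radiotherapy replicate 3 was the highest library. P4ha2, a catalytic subunit of prolyl 4-hydroxylase, was at 24.43, 25.74 and 18.23 TPM in the controls and 11.16, 9.78 and 17.59 TPM in radiotherapy muscle. Sec23a, a coat protein needed to export procollagen, was at 13.59 to 21.33 and 7.52 to 11.21 TPM. Without radiotherapy replicate 3, 6 of the 16 were called lower and 0 higher, against a background of 27.6% and 1.98%.

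Of 5 tested genes that trim procollagen, 1 was separated downward and 0 upward, beside 19.3% and 1.73% of all features, and 0 passed. Pcolce, which speeds removal of the C-propeptide, was at 16.97, 9.82 and 13.87 TPM in the controls and 38.76, 34.38 and 11.88 TPM in radiotherapy muscle, with replicate 3 inside the control range. Without that library its log2 difference went from 0.88 to 1.397 (limma adjusted p = 0.0193), and Furin passed in the opposite direction, at -1.55 (limma adjusted p = 0.0135). Bmp1, the C-proteinase itself, was at 1.16 to 3.05 and 2.78 to 4.16 TPM, and Pcolce2, a relative of Pcolce, at 1.20 to 2.17 and 0.50 to 0.97 TPM. Furin, a protease that activates propeptides, was at 16.02, 11.93 and 10.52 TPM in the controls and 3.79, 3.51 and 13.14 TPM in radiotherapy muscle. Among 3 tested crosslinking genes none was separated, and 0 passed. Loxl1, a lysyl oxidase, was at 1.98 to 3.34 TPM in the controls and 3.46, 3.14 and 7.42 TPM in radiotherapy muscle. Tgm2, tissue transglutaminase, was at 59.79 to 102.34 TPM in the controls and 23.58, 24.40 and 257.64 TPM in radiotherapy muscle, and Lox at 1.53 to 2.93 against 1.64, 1.27 and 21.95 TPM. Replicate 3 was the highest radiotherapy library for these 3 genes and the lowest for the type I chains. Without it Tgm2 passed as lower, at -1.75 (limma adjusted p = 0.014).

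Among proteins that assemble with collagen fibrils, 13 were tested. Of these, 4 were separated upward and 0 downward, beside 1.73% and 19.3% of all features, 0 passed over all features, and the median log2 difference was 0.21. Bgn was at 10.22, 8.14 and 10.12 TPM in the controls and 21.05, 18.96 and 11.66 TPM in radiotherapy muscle. Sparc, a collagen-binding matricellular protein, was at 62.60, 50.89 and 46.42 against 68.15, 79.37 and 101.43 TPM. Postn was at 1.31, 0.67 and 1.53 against 6.63, 7 and 2.17 TPM, and Fn1, fibronectin, at 2.48 to 4.98 against 7.78 to 9.80 TPM. Without radiotherapy replicate 3, 3 of the 13 passed as higher (Postn, Bgn and Fmod, the last also a tendon cell marker) and none lower, beside 1.98% and 27.6% of all features.

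Of 6 tested collagen receptors, 0 were separated and 0 passed. Ddr1, a receptor kinase for collagen, was at 9.75, 10.16 and 6.09 TPM in the controls and 3.35, 3.15 and 10.16 TPM in radiotherapy muscle, Mrc2, which takes up collagen, at 0.41 to 1.05 and 0.59 to 2.56 TPM, and Antxr2, a receptor for type VI collagen, at 0.48 to 1.30 and 0.89 to 3.18 TPM. Cspg4, a proteoglycan that binds type VI collagen, was at 0.82 to 1.58 and 1.14 to 1.74 TPM. Among 8 proteases and inhibitors of collagen breakdown, 1 was separated downward and 0 upward, beside the same 19.3% and 1.73%, and 0 passed. This was Timp4, a metalloproteinase inhibitor, at 29.45, 23.86 and 27.07 TPM in the controls and 11.88, 13.99 and 18.94 TPM in radiotherapy muscle. Mmp2, a gelatinase, was at 13.11 to 16.14 and 10.12 to 14.95 TPM, Timp3 at 13.18 to 25.50 and 10.20 to 16.30 TPM, and Timp1 at 1.99 to 3.55 against 4.24, 1.69 and 28.56 TPM. Of 13 TGF-beta genes, which act upstream of collagen transcription, 1 was separated downward and 0 upward, beside 19.3% and 1.73% of all features, and 0 passed. This was Smad4, the shared partner of receptor-activated SMADs, at 27.31, 18.05 and 19.39 TPM in the controls and 6.08, 6.42 and 17.05 TPM in radiotherapy muscle. Tgfbr2, the type II receptor, was at 3.75 to 6.12 and 1.6 to 3.8 TPM, Smad7, an inhibitory SMAD, at 1.69 to 2.10 and 0.51 to 1.83 TPM, and Tgfb3, a ligand, at 6.65 to 9.69 and 4.20 to 7.04 TPM. Without radiotherapy replicate 3, 4 of the 13 were called lower and 1 higher, beside 27.6% and 1.98% of all features. The 1 called higher was Ltbp4, which binds latent TGF-beta, at 11.94, 7.94 and 10.23 against 33.37, 26.14 and 5.48 TPM, named after its values were seen.

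**Figure D4:**
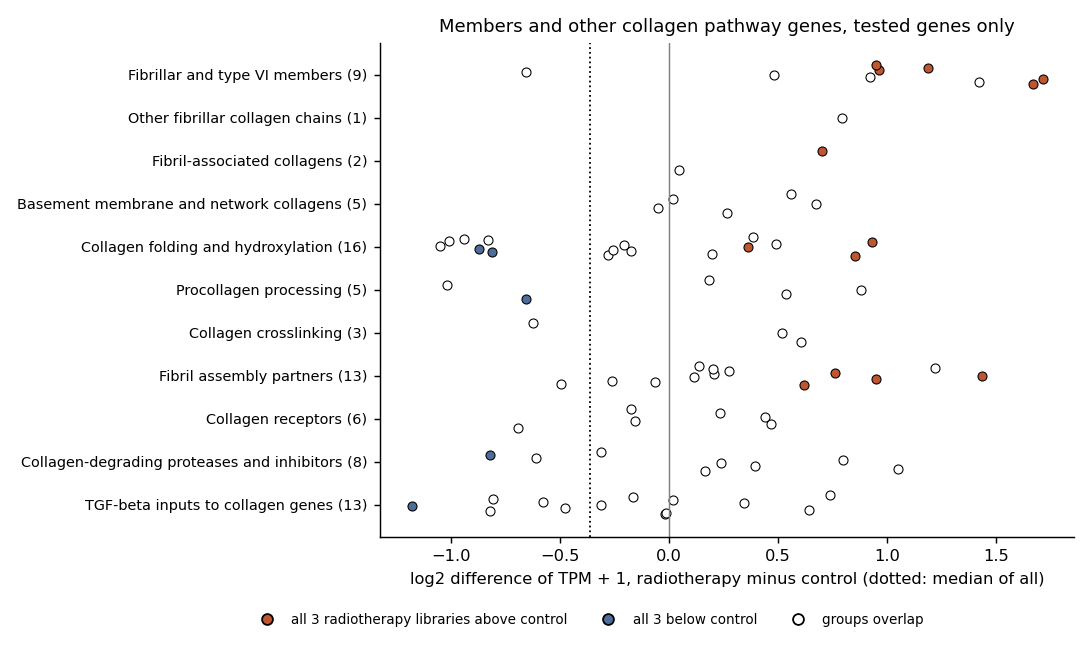
Log2 difference of TPM + 1 (radiotherapy minus control) of the 9 chains and of the tested genes of the collagen pathway lists, with the number tested in brackets. Filled points are genes whose groups do not overlap; 8 of the 9 chains lie above 0, while the folding genes spread from -1.05 to 0.93.

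Markers of cells that could carry these transcripts were read beside them. In a bulk sample, fewer cells of a type and less RNA per cell cannot be told apart. Fibre markers, which check the labelled tissue, summed to 123969 to 144334 TPM in control, 177971 and 181383 TPM in radiotherapy replicates 1 and 2, and 109109 TPM in replicate 3. The 10 tendon cell markers summed to 19.3, 8.33 and 13.5 TPM in the controls. In radiotherapy replicates 1, 2 and 3 their sums were 57.4, 46.2 and 8.8 TPM. Like the type I chains, and like several other marker sums, among them those of fibres, slow fibres and Schwann cells, they were higher in replicates 1 and 2 than in replicate 3. The slow fibre markers summed to 1176, 88.4 and 1596 TPM in the controls and 1099, 2143 and 276 TPM in radiotherapy replicates 1, 2 and 3. Of the tendon markers, 3 were tested, 0 passed and 0 were separated. Without radiotherapy replicate 3, Fmod and Thbs4 passed as higher, 2 of the 3. Tnmd, a defining marker, was at 0.30, 0.14 and 0.08 TPM in the controls and 0.90, 2.54 and 0.08 TPM in radiotherapy muscle, and Kera and Chad were at 0 in radiotherapy replicate 3. Scx, the tendon transcription factor, was at 8.12, 4.51 and 4.83 TPM in the controls and 16.93, 8.06 and 4.77 TPM in radiotherapy muscle. Mkx, Cilp2 and Ptx4, also on the tendon list, stayed below 1 TPM in every library. In replicate 3 Col1a1, Col3a1 and the type VI chains were above every control library while the tendon sum lay within the control range. The mean log2 level of the 10 tendon markers was the lowest of the 6 libraries in replicate 3. The part of tendon cells in the higher levels of replicates 1 and 2 was not tested.

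The 12 markers of fibro-adipogenic progenitors and fibroblasts summed to 398.6 to 620.9 TPM in the controls, against 313.4 to 444.7 TPM in radiotherapy muscle. Of 9 tested, 1 was separated upward (Pi16, at 2.70 to 5.06 and 6.58 to 9.69 TPM) and 1 downward (Ly6a, at 140.97 to 288.20 and 85.21 to 90.81 TPM), beside 1.73% and 19.3% of all features, and 0 passed. Gsn and Ly6a carried most of the sum. Without radiotherapy replicate 3, 4 of the 9 were separated upward and 3 downward, beside 6.17% and 58.8% of all features, and Pi16 passed as higher (limma adjusted p = 0.0402). Pdgfra, their defining receptor, was at 1.44, 0.64 and 1.09 TPM in the controls and 1.15, 0.92 and 1.90 TPM in radiotherapy muscle. Schwann cell markers summed to 22.6 to 135.2 TPM in the controls and to 146.3, 189.6 and 24.0 TPM in radiotherapy replicates 1, 2 and 3. Smooth muscle and pericyte markers summed to 112.5 to 137.7 and 144.2 to 184.0 TPM, with 2 of 10 separated upward and 1 downward, beside 1.73% and 19.3% of all features, and 0 passing. Neutrophil markers summed to 74.5 to 186.6 TPM in control, 11.0 and 18.7 TPM in radiotherapy replicates 1 and 2, and 2980 TPM in replicate 3. Endothelial markers summed to 162.1 to 183.8 TPM in the controls and to 146.4, 124.0 and 307.3 TPM in radiotherapy muscle, and macrophage markers to 73.6 to 231.4 and 73.3 to 392.5 TPM. Satellite cell markers summed to 31.9 to 89.6 TPM in the controls, against 9.32 to 18.8 TPM in radiotherapy muscle, with 2 of 3 tested separated downward, beside 19.3% of all features, and 0 passing. The part of these cells in the levels of the chains was not tested.

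**Figure D5:**
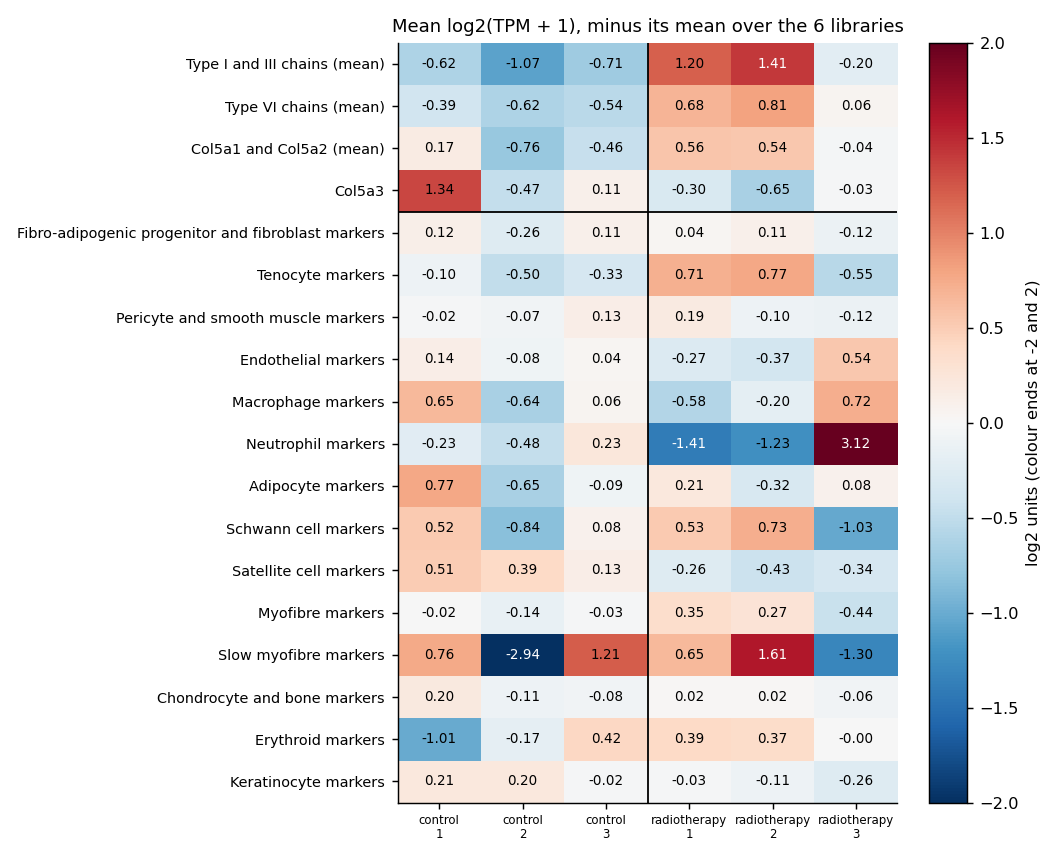
Mean log2(TPM + 1) of the collagen groups (above the line) and of each cell type marker list (below it), minus its mean over the 6 libraries, with the value printed in each cell. The type I and III chains are at 1.20 and 1.41 in radiotherapy replicates 1 and 2 and at -0.20 in replicate 3, and tendon cell markers are at 0.71, 0.77 and -0.55 in the same libraries.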

How the data were processed

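RNA-seq levels of 3 control and 3 radiotherapy muscle libraries were used. Libraries were made with a TruSeq kit from total RNA, per the labels' protocols. Values are deposited as TPM, which the authors scaled for length and library total, so each library has the same total, the depth is unknown, and precision rests on the spread of 3 libraries. The submitters' processing notes name HISAT2, StringTie, RSEM and the mouse build mm9, with no versions. The sources used here name no annotation release. Promoters came from RefSeq on GRCm38.p6, a different build, and were matched by symbol.

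Features averaging 1 TPM or more (11938 of 55995, 504 of them unnamed) were tested on log2(TPM + 1), which understates differences of low genes. The test was limma 3.58.1 in R 4.3.3 (trend, two-sided), with Benjamini-Hochberg adjustment over all of them and a threshold of 0.05. The procedure was tested on simulated data, with noise drawn gene by gene and no shift of a whole library. There it recovered 2.61% of changes of log2 1 and 50.6% of changes of log2 2, and 7.17% of its calls were false. Alternatives covered pseudocounts, filters, scaling, variance model, replicate block and leaving out each library. The list counts without radiotherapy replicate 3 and the differences relative to the median of all features were added after seeing the data.

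The chains, lists and tests were chosen with earlier results of these data known. Named were the 9 chains, up to 4 genes per pathway list with the smallest p, and the 8 genes nearest to each of 2 chain profiles, leaving out predicted models. Marker genes named singly (Tnmd, Kera, Chad, Scx, Mkx, Cilp2, Ptx4, Fmod, Thbs4, Pi16, Ly6a, Gsn, Pdgfra) were picked after their values were seen. Figures used matplotlib 3.10.9.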

Additional observations from a re-analysis of the deposited data

How the results depend on the processing

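All 9 differences kept their sign in every setting run for them, 16 or 17 each. No chain passed the limma test in any setting other than the one without radiotherapy replicate 3. Leaving out 1 library gave 0 to 6 chains called higher, beside 0% to 1.98% of all features, and 0 to 0 lower, beside 0% to 27.6%. It left 5 to 8 chains separated upward, beside 2.33% to 6.17% of all features upward and 20.7% to 58.8% downward. The median of the chains ran from 0.87 to 1.30. The median was 1.36 with a pseudocount of 0.1, 1.35 with quantile normalisation and 1.55 when 5 TPM was the lowest mean tested. In that last setting only 4 chains were tested and 2 were separated upward, beside 1.45% of all features upward and 20.2% downward. With quantile normalisation 8 were separated upward, beside 7.85% upward and 11% downward. Over all features, 5 higher and 2 lower became 0 and 0 in limma without a filter (unadjusted p under 0.05 in 300 higher and 1996 lower features), and 3 and 1 with median-of-ratios scaling and with quantile normalisation. With a pseudocount of 0.1, 5 were lower, and when 5 TPM was the lowest mean tested, 1 was. Leaving out 1 library gave 0 to 236 higher and 0 to 3298 lower. The cause of these shifts was not tested.

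With the replicate number as a block, 4 features were higher and 0 lower (824 lower at an unadjusted p under 0.05), and 0 chains passed (limma adjusted p = 0.6 for Col3a1 and Col6a2). An unadjusted limma p under 0.05 was reached by 7 of the 9 chains, all higher, beside 0.988% of all features higher and 6.9% lower. Deviations of same-numbered libraries from their group means correlated at -0.05, -0.11 and -0.20 over genes. Each group mean rests on only 3 libraries, so these correlations cannot decide whether the numbers pair the libraries.

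Without single libraries the difference in log2 ratio ran from -0.41 to 0.065 for Col3a1 to Col1a1. For Col6a3 to Col6a1 it ran from -0.11 to 0.22, so neither has a stable sign. The other ratios kept their sign. Their ranges were 0.24 to 0.49 for Col1a1 to Col1a2, -0.77 to -0.33 for Col5a2 to Col5a1 and 0.11 to 0.46 for Col6a2 to Col6a1.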
